A study of Mus musculus with 12 samples.

Results

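The libraries described here come from BV2 cells, a line of immortalised microglia from mouse. In these cells mouse Spi1 was overexpressed transiently from a cDNA before the cells were sorted by flow cytometry. They are 6 of the 12 libraries of the series: 3 carried the Spi1 cDNA and 3 carried an empty frame as control. The other 6 libraries are BV2 cells with a transient short hairpin RNA against Spi1, or with a scrambled hairpin, and share no control with these. Spi1 encodes PU.1, the subject of the series title, which ties the amount of this factor to Alzheimer's disease and to inflammation in microglia. The labels give no further treatment, and polyA RNA was sequenced. All groups are 1 cell line, and the labels leave unsaid whether replicates were grown as separate cultures. The p-values therefore measure a spread between libraries that may be technical. A cDNA and the cells' own Spi1 gene give reads that cannot be told apart in a total per gene. Same-numbered libraries were taken as pairs, 3 in all, and the 11217 genes whose mean reached 1 FPKM (read counts scaled by gene length and by the depth of the library) were tested, of 24062 entries. The gene just inside that limit was Hdc, with a mean of 1.000225 FPKM, and the one just outside was Lyzl4, with 0.9999558 FPKM.

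PU.1 belongs to the ETS transcription factors and binds purine-rich DNA with a GGAA core. It is required for the development of macrophages and microglia, and in mature cells it occupies promoters and enhancers of genes for colony-stimulating factor receptors, Fc receptors, integrins and lysosomal proteins. Its dose matters in blood cell development, where different levels favour different lineages.

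The libraries held 22333013, 23909176 and 27813964 reads on genes in empty controls 1 to 3 and 29808800, 27664919 and 29076939 reads in overexpression libraries 1 to 3, so that each overexpression library was deeper than the control of its number. Of 16 defining markers of microglia and macrophages, 14 had a mean of at least 1 FPKM, and their summed level was 4749 to 6217 FPKM in the empty controls and 5218 to 6815 FPKM in overexpression. Cx3cr1 and P2ry12, receptors that mark resting microglia in the brain, lay below that limit, at 0.125 to 0.477 FPKM and at 0.107 to 0.273 FPKM over the 6 libraries. The 8 neuron markers summed to at most 0.191 FPKM and the 8 fibroblast markers to at most 0.114 FPKM in any of them. Markers of other cell types at 1 FPKM or more were Aldoc, Cnp, Kdr, Vwf, Lck, S100a8 and Tfrc. In the highest library the astrocyte markers summed to 72.7 FPKM, the oligodendrocyte markers to 12.9, the endothelial markers to 68.9 and the erythroid markers to 185 FPKM. Because the RNA is from bulk cells, fewer cells of a type and less RNA per cell cannot be told apart.

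Raising Spi1 gave a small response in which few genes passed the test and most differences were below 2-fold. In the paired test 9 genes were higher in overexpression and 4 were lower (limma, Benjamini-Hochberg, BH, adjusted p between 0.0348 and 0.0480), which is 0.0802% and 0.0357% of the genes tested. The rises were led by the matrix metalloprotease genes Mmp12 and Mmp13 and the chemokine gene Ccl12, and the falls were those of another chemokine gene, Ccl5, and of 3 entries for small RNAs. A difference of 1 sign in all 3 pairs was seen in 4243 genes, or 37.8%, of which 1574 (14.0%) were higher and 2669 (23.8%) were lower. The remaining 6974 genes were mixed. When each pair had to differ by at least 0.2 on the log2(FPKM + 1) scale, 97 genes were higher and 83 were lower, or 0.865% and 0.74% of the genes tested. The median fitted difference was 0.40 in the former and -0.33 in the latter. A difference of at least 1 on the log2(FPKM + 1) scale in every pair was found for 3 genes, Mmp12, Mmp13 and Ccl12, all of them higher. The added 1 FPKM makes this stricter than 2-fold in FPKM, which Gm5483, for example, also reached in every pair. The groups of 3 libraries did not overlap in 455 genes, or 4.06%.

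Pair number accounted for more of the spread than the treatment did. In the median gene 86.1% of the variance over the 6 libraries lay between pair numbers, 3.91% between the treatments and 5.58% in neither. Without the pair block no gene passed in limma, and 122 genes (1.09%) had an unadjusted p under 0.05, whereas with the block 606 higher (5.4%) and 971 lower genes (8.66%) did. The 13 calls were also all lost when pair 1 was left out, with 0.1 FPKM added in place of 1, or with no filter on low values, and 4 of them remained without pair 2 and 12 without pair 3. In limma-voom on reads recovered from the FPKM values 543 genes passed, 221 higher and 322 lower, among them 9 of the 13. Of the genes chosen for naming, 93 that did not pass in the paired limma fit passed in limma-voom. For overexpression, not passing therefore refers below to the paired limma fit unless another fit is named. Differences within the pairs were alike only in part: across genes, which are not independent replicates, their correlations were 0.156, 0.202 and 0.244.

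Spi1 itself rose in every pair. Its level was 158, 117 and 131 FPKM in empty controls 1, 2 and 3, against 287, 224 and 206 FPKM in overexpression libraries 1, 2 and 3. All overexpression libraries lay above all controls. Mean levels of 135 ± 20.8 and 239 ± 42.3 FPKM (SD, n = 3 each) gave a difference of 0.81 on the log2 scale with a standard error of 0.0629 (limma, BH adjusted p = 0.0357). Without pair 1 or pair 2 the adjusted p in limma was 0.175 or 0.0662, and without pair 3 it was 0.00866. The targeted gene thus moved as the labels state, by less than 2-fold.

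Mmp12 and Mmp13 had the largest rises of the genes that passed. Mmp12 encodes macrophage metalloelastase, a secreted protease that cleaves elastin, and Mmp13 encodes a collagenase. Both lie in a cluster of protease genes on chromosome 9 of mm10, Mmp13 at bases 7272514 to 7283331 and Mmp12 at bases 7344381 to 7369499, both on the plus strand. The promoters of these neighbours and of Ccl12, the gene with the next largest rise, are shown because these 3 differed most among the genes that passed and because PU.1 is known to bind sequences such as GAGGAA. They are the RefSeq windows of GRCm38.p6 from 250 bases before to 50 after the annotated start, chr9:7344147-7344446, chr9:7272264-7272563 and chr11:82101595-82101894, all on the plus strand and written 5′ to 3′. Capitals mark GAGGAA on either strand, so that TTCCTC is its match on the minus strand.
Mmp12: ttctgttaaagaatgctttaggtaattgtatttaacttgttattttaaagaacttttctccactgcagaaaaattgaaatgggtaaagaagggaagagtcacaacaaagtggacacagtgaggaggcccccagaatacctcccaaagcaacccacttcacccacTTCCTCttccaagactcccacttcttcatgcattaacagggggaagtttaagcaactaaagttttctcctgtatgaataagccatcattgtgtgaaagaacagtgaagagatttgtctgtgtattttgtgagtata
Mmp13: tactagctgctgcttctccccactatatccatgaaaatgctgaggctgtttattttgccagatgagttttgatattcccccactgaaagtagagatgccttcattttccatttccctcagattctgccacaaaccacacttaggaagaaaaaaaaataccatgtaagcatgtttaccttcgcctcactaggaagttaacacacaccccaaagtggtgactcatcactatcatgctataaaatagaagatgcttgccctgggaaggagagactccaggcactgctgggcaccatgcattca
Ccl12: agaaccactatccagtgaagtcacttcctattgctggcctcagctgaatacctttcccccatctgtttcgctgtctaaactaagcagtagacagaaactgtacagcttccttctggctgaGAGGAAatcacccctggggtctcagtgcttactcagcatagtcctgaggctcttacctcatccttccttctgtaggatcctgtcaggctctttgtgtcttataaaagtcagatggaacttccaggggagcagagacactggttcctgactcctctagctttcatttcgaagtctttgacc
The Mmp12 window held 1 match, on the minus strand with its leftmost base at position -86 from the start, and there the letters extend to GAGGAAGT. Another RefSeq window of Mmp12, from a start farther along the gene, held none. Ccl12 held 1 match on the plus strand at position -130, and Mmp13 held none. A match is a description of the letters in these windows and not of binding.

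Mmp12 stood at 7.29, 2.99 and 3.90 FPKM in the controls and at 37.0, 12.8 and 29.6 FPKM in overexpression. The lowest overexpression library, from pair 2, was still above the highest control. The means of 4.73 ± 2.26 and 26.5 ± 12.4 FPKM (SD, n = 3 each) gave a log2 difference of 2.21 with a standard error of 0.157 (limma, BH adjusted p = 0.0357). Part of its 3′ end is annotated on both strands, since Mmp1b overlaps it on the minus strand; Mmp1b was at 0 in all 3 controls and at most 0.0362 FPKM in overexpression. Mmp13 had 0.988, 0.235 and 0.914 FPKM in the controls against 3.93, 1.53 and 4.38 FPKM, again without overlap and again lowest in pair 2. Its log2 difference was 1.28 with a standard error of 0.0906 (limma, BH adjusted p = 0.0357). On this scale the addition of 1 FPKM understates the change of a gene as low as Mmp13, which with 0.1 FPKM added differed by 2.10. No other gene of the cluster was tested, and Mmp3, Mmp1a, Mmp7 and Mmp20 were at 0 in all 6 libraries.

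Another matrix protease gene lay the opposite way. Mmp9, which encodes gelatinase B, was at 8.93, 12.5 and 17.0 FPKM in the controls and at 5.74, 6.34 and 8.99 FPKM in overexpression, lower within each pair, with groups that overlapped by a little. The log2 difference of -0.76 did not pass (limma, BH adjusted p = 0.0606). Of 13 tested genes for matrix proteases, their inhibitors and the urokinase system, 2 rose, Mmp12 and Mmp13, and none fell. In all pairs 5 were higher (38.5%, against 14.0% of all genes) and 4 lower (30.8%, against 23.8%), with a median of 0.01.

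Chemokine genes went both ways. Ccl12, the gene of the monocyte chemokine MCP-5, had 21.5, 6.55 and 17.0 FPKM in the controls and 46.5, 21.0 and 39.5 FPKM in overexpression. Libraries of pair 2 were the lowest in both groups, so the groups overlapped while each pair differed by more than 2-fold. The log2 difference was 1.26 with a standard error of 0.0952 (limma, BH adjusted p = 0.0357). Ccl5, the gene of the T cell and monocyte chemokine RANTES and one of the most abundant RNAs of these cells, fell. It was at 990.5, 2455 and 2559.9 FPKM in the controls and at 664, 1683 and 1714 FPKM in overexpression. Pair 1 had far less of it than the other pairs, and the difference within the pairs was nearly the same in each, -0.57 on average with a standard error of 0.0377 (limma, BH adjusted p = 0.0357).

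Genes next to Ccl12 lay in its direction without passing. Ccl2, Ccl7, Ccl12 and Ccl8 lie on chromosome 11 between bases 82035571 and 82116799, and all 4 were higher in each pair. Ccl7 stood at 285, 40.5 and 225 FPKM in the controls and at 428, 99.8 and 367 FPKM in overexpression, and Ccl2 at 1126, 238 and 900.2 FPKM against 1434, 456 and 1239 FPKM. Their log2 differences were 0.86 and 0.58 (limma, BH adjusted p = 0.136 and 0.164), and that of Ccl8 was 0.89 from 0.175, 1.39 and 0.985 FPKM in the controls. Farther along the chromosome, between bases 83525778 and 83664683, Ccl9, Ccl6 and Ccl3 were higher in all pairs by 0.23, 0.24 and 0.14, Ccl4 was mixed, and Ccl5 fell. Over the 11 tested members of the chemokine list, which does not hold Ccl8 or the mixed Ccl25, 1 rose and 1 fell. In all pairs 7 were higher (63.6%, against 14.0% of all genes) and 3 lower (27.3%, against 23.8%). The median was 0.23, against -0.01 over all genes. Cxcl2, a neutrophil chemokine gene, was at 29.4, 25.3 and 26.9 FPKM against 36.8, 51.8 and 42.4 FPKM, with no overlap and a log2 difference of 0.65 (limma, BH adjusted p = 0.161). Cxcl10, an interferon-induced chemokine gene, and Pf4, the gene of platelet factor 4, were lower in all pairs, at -0.27 and -0.25.

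A cluster of stefin A genes on chromosome 16, whose proteins inhibit cysteine proteases such as cathepsins, was higher throughout its 4 tested members. Gm5483, a predicted gene of this cluster at bases 36184212 to 36188111, rose from 5.42, 4.86 and 9.05 FPKM to 11.7, 12.6 and 21.0 FPKM. The lowest overexpression library was above the highest control, and the log2 difference was 1.11 with a standard error of 0.0559 (limma, BH adjusted p = 0.0348). The clone gene 2010005H15Rik stood at 22.5, 23.6 and 27.9 FPKM in the controls and 40.0, 60.4 and 59.8 FPKM in overexpression, also without overlap, a difference of 1.07 that did not pass (limma, BH adjusted p = 0.0606). Stfa3 was at 1.09, 1.52 and 4.01 FPKM against 2.85, 5.88 and 14.8 FPKM, and Gm5416 differed by 0.66 in the same direction. Members of this family are near-identical in sequence, so the authors' counting may have split their reads, and the values of single members are uncertain. Gm5483, 2010005H15Rik and Gm5416 fall outside the rule for naming genes and were chosen after their values were seen.

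The other protein-coding genes that passed were Evl, Adora2b and Gsta2. Evl encodes a regulator of actin filament growth of the Ena/VASP family. It rose from 4.37, 5.07 and 3.48 FPKM to 7.03, 8.86 and 5.87 FPKM, with every overexpression library above every control and a log2 difference of 0.63 with a standard error of 0.0430 (limma, BH adjusted p = 0.0357). Evl shares sequence with Degs2 on the opposite strand, and the libraries do not mark strand; Degs2 was at 0.890, 0.948 and 0.714 FPKM against 1.57, 1.99 and 1.48 FPKM (limma, BH adjusted p = 0.0606). Adora2b encodes the low-affinity adenosine A2B receptor, and rose from 1.38, 2.18 and 1.52 FPKM to 2.57, 3.67 and 2.85 FPKM. Its 3 pairs differed by nearly the same amount, 0.58 on the log2 scale with a standard error of 0.0385 (limma, BH adjusted p = 0.0357), and the groups did not overlap. Gsta2 encodes a glutathione S-transferase and was near the limit of detection, with 16, 0 and 22 reads in the controls and 51, 14 and 45 in overexpression. That corresponds to 0.838, 0 and 0.925 FPKM against 2.001, 0.592 and 1.81 FPKM, with overlapping groups and a log2 difference of 0.64 (limma, BH adjusted p = 0.0357).

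**Figure D1:**
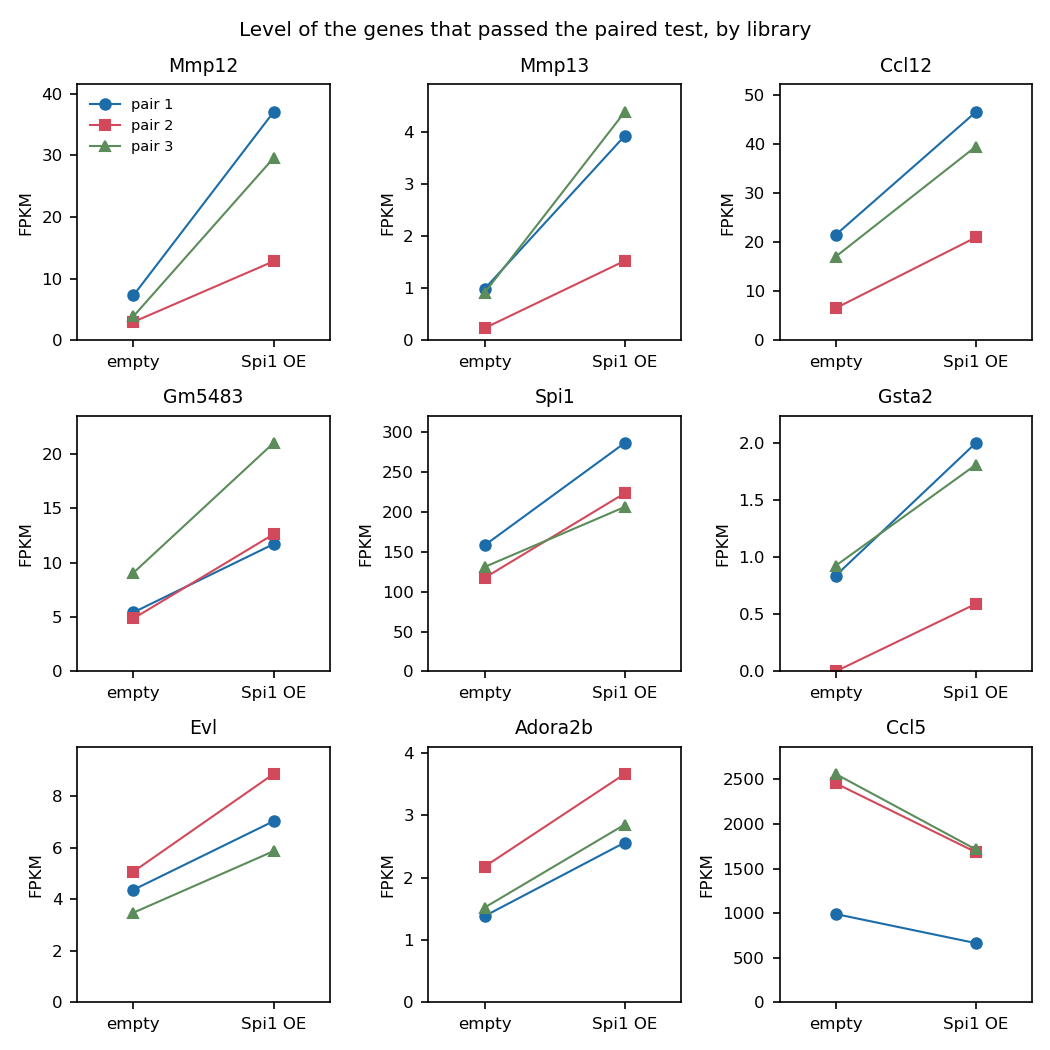
Levels in FPKM (linear axes from 0) of the 9 genes longer than 150 bases that passed the paired test, in the empty controls and the Spi1 overexpression (OE) libraries; each line joins the 2 libraries of a pair. Lines run upward in all 3 pairs for 8 genes and downward for Ccl5, and pair 2 starts lowest for Mmp12, Mmp13, Ccl12, Gm5483, Spi1 and Gsta2.

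The remaining 4 calls were entries for microRNA precursors. Mir7240 rose by 0.56 on the log2 scale, and Mir6946 fell by 0.59, Mir3101 fell by 0.73 and Mir7026 fell by 0.74. These entries are 58 to 88 bases long, shorter than the 100-base reads, and rested on 1 to 11 reads per library. Each lies inside a protein-coding gene: Mast3 for Mir7240, Sec24c for Mir6946, Rab4b for Mir3101 and Ep400 for Mir7026. None of the 4 passed in limma-voom on reads recovered from the FPKM values, where the adjusted p lay between 0.202 and 0.511, while the other 9 calls did. Of the 97 genes at least 0.2 higher in all pairs 18 were entries under 150 bases, and 12 of the 83 lower ones were. The share of such entries among all genes tested was not counted, so whether these numbers exceed it is not known. Mir7048, Mir7014, Mir6984 and Mir7674 (higher) and Mir7015, Mir6970, Mir3060 and Snord88c (lower), which also had large differences in every pair, are entries of this kind.

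Several genes of inflammation differed clearly in every pair without passing the paired limma test. Il1rn, which encodes an antagonist of the interleukin-1 receptor, was at 207, 190.1 and 183 FPKM in the controls and at 359, 600.1 and 375 FPKM in overexpression. Its groups were far apart, but the overexpression libraries spread widely, and the difference of 1.16 had a standard error of 0.163 (limma, BH adjusted p = 0.115). Csf3, which encodes the neutrophil growth factor G-CSF, stood at 8.34, 8.07 and 7.41 FPKM against 12.3, 17.2 and 12.6 FPKM (log2 difference 0.74). Clec4n, the gene of the fungal receptor dectin-2, was at 10.8, 31.7 and 9.39 FPKM against 14.7, 67.1 and 17.6 FPKM, with pair 2 far above the others in both groups (log2 difference 0.77). Nos2, which encodes the inducible nitric oxide synthase, differed by 0.45, and Tnfaip3, the gene of the NF-kB inhibitor A20, by 0.34. The highest of these 5 genes' adjusted p-values was 0.136 and the lowest 0.0932 (limma, BH).

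On the lower side, no protein-coding gene but Ccl5 passed, and Hp, Cfb, Saa3, Tmem176a, Tmem176b and Ly6a were among those with the largest differences in every pair. Hp, the gene of the haemoglobin-binding protein haptoglobin, had 3.10, 7.43 and 8.26 FPKM in the controls and 1.87, 2.61 and 2.23 FPKM in overexpression. All overexpression libraries were below all controls, although the size varied between the pairs (log2 difference -1.09, standard error 0.189; limma, BH adjusted p = 0.148). Cfb, the gene of complement factor B, was at 5.17, 15.9 and 15.2 FPKM against 3.73, 9.58 and 7.50 FPKM, and Saa3, the gene of a serum amyloid A protein, at 64.3, 192 and 144 FPKM against 49.5, 145 and 87.05 FPKM. Control 1 held the least of all 3 genes among the controls. Tmem176a and Tmem176b, genes of related membrane proteins, differed by -0.60 and -0.56, with no overlap between the groups for Tmem176b, which was at 20.4, 24.0 and 29.4 FPKM against 14.7, 14.995 and 19.2 FPKM (limma, BH adjusted p = 0.0606 for both). Ly6a, the gene of the surface antigen Sca-1, was also lower in each pair, with a difference of -0.54.

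Textbook PU.1 target genes went both ways. Of 40 tested, none passed, where 0.116% of all genes did. In all pairs 12 were higher (30%, against 14.0% of all genes) and 10 lower (25%, against 23.8%). In limma 8 higher and 5 lower members of the 40 had an unadjusted p under 0.05, against 5.4% and 8.66% of all genes. The median difference was -0.00, against -0.01 over all genes. At the upper end was Emr1, the gene of the macrophage antigen F4/80, at 76.0, 77.4 and 66.8 FPKM in the controls and 100.5, 84.2 and 83.6 FPKM in overexpression. These groups did not overlap, and the difference was 0.28 (limma, BH adjusted p = 0.1996). Lyz2, the gene of lysozyme, was higher in each pair by 0.26 on average. At the lower end was Cybb, the gene of the gp91 subunit of the phagocyte NADPH oxidase, at 149.997, 234 and 147 FPKM against 128, 175 and 117 FPKM, a difference of -0.32 (limma, BH adjusted p = 0.136). Csf1r, which encodes the macrophage growth factor receptor CSF-1R and is itself a classic PU.1 target, was lower in each pair, with a difference of -0.16. Among 13 tested partners and antagonists of PU.1, none passed and 9 were mixed, where 6974 of all 11217 genes were mixed. Of 27 macrophage transcription factors 4 were higher (14.8%) and 6 lower (22.2%) in all pairs, near the shares of all genes, with Id2 at 0.38 and Nr4a1 at -0.40.

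Genes of the integrated stress response went 1 way almost without exception, by small amounts. This response shuts down general translation and, through the factor ATF4, raises genes of amino acid supply and of the enzymes that charge tRNAs. Of 29 tested members, 27 were higher in all pairs, where 14.0% of all genes were; 1, Eprs, was lower and 1, Nupr1, was mixed. No member passed, and 17 higher ones had an unadjusted p under 0.05 in limma, where 5.4% of all genes did. The median difference was 0.12 in a range from -0.05 to 0.35. Trib3, the gene of a pseudokinase induced by ATF4, was at 12.6, 27.1 and 14.9 FPKM against 16.2, 34.7 and 18.9 FPKM, and its 3 pair differences lay between 0.32 and 0.35. Ddit3, which encodes the factor CHOP, was at 75.4, 169 and 79.6 FPKM against 90.7, 219 and 100.3 FPKM. In both genes, pair 2 stood far above the others in either group, so the groups overlapped while each pair differed in the same direction (limma, BH adjusted p = 0.0839 and 0.113). Chac1, the member with the largest difference, was at 0.799, 1.57 and 0.710 FPKM against 1.13, 2.30 and 1.31 FPKM. Asns, the gene of asparagine synthetase, Slc7a11, that of the cystine transporter, and Aars, that of alanyl-tRNA synthetase, differed by 0.20, 0.29 and 0.20, and of these 3 genes Aars had groups without overlap. Atf4 RNA was higher by 0.17. With other filters, scalings and pairs left out, 26 or 27 members of this list were higher.

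Antioxidant genes controlled by the factor NRF2 were higher in all pairs in 11 of 19 members (57.9%, against 14.0% of all genes) and lower in 4 (21.1%, against 23.8%), with a median of 0.11. Sqstm1, which encodes the autophagy receptor p62, was at 377, 659 and 383 FPKM against 435, 888 and 462 FPKM, a difference of 0.30, and Hmox1, the gene of haem oxygenase, at 454, 766 and 495 FPKM against 561, 875 and 571 FPKM, a difference of 0.24. The lists share Slc7a11. For genes of the unfolded protein response and folding in the endoplasmic reticulum, 9 of 22 members (40.9%) were higher and 4 (18.2%) lower in all pairs, with Hspa5, the gene of the chaperone BiP, at 0.19. Of 13 heat shock chaperone genes 1 was higher (7.69%) and 9 were lower (69.2%) in all pairs, with a median of -0.06. No gene of these lists passed.

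Genes of mitosis lay lower. Most genes of the G1/S transition and DNA replication were mixed across the pairs, as were 6974 of all 11217 genes tested. Of 34 genes of the G2/M phase, 27 were lower in all pairs and none was higher, against 23.8% and 14.0% of all genes. No member passed, and 19 lower ones had an unadjusted p under 0.05 in limma, where 8.66% of all genes did. The median was -0.13. All 34 fitted differences were below 0, from -0.27 for Cdc20 to -0.06 for Ncapg. Cdc20, an activator of the anaphase-promoting complex, was at 36.8, 33.7 and 49.6 FPKM against 33.4, 24.9 and 41.8 FPKM, and Plk1, the gene of a mitotic kinase, at 29.7, 30.3 and 42.3 FPKM against 26.0, 22.6 and 37.0 FPKM. Pair 3 held the highest level of both in each group. Of 35 genes of the G1/S transition and DNA replication 12 were higher (34.3%) and none was lower in all pairs, and 23 were mixed. Their median was 0.04, and 28 fitted differences were above 0. That leaning was weaker without pair 1. There 12 were higher (34.3%, against 25.4% of all genes) and 7 lower (20%, against 37.2%), with a median of -0.01. Ung, the gene of uracil-DNA glycosylase, stood at the upper end with 11.0, 6.04 and 9.46 FPKM against 12.2, 7.58 and 11.6 FPKM, a difference of 0.23 (limma, BH adjusted p = 0.169).

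Glycolysis and hypoxia genes were lower as well. Of 30 tested members 18 were lower (60%, against 23.8% of all genes) and none was higher (against 14.0%) in all pairs. No member passed, 11 lower ones had an unadjusted p under 0.05 in limma (against 8.66% of all genes), and the median was -0.09. Ankrd37, a hypoxia-induced gene, was at 4.21, 5.65 and 5.45 FPKM against 3.23, 4.60 and 3.23 FPKM, a difference of -0.39, and Aldoc, the gene of aldolase C, differed by -0.27. Pdk1, which encodes a kinase that closes pyruvate dehydrogenase, was at 20.4, 19.9 and 21.2 FPKM against 17.6, 18.4 and 18.5 FPKM, a small difference of -0.17 with no overlap between the groups. Ldha, the lactate dehydrogenase gene, differed by -0.11. In 3 other lists most members were mixed, as were most genes tested (6974 of 11217). Of 22 cholesterol biosynthesis genes 10 were lower in all pairs and 0 higher, of 46 cytosolic ribosomal protein genes 17 and 0, and of 38 respiratory chain genes 15 and 1, against 23.8% lower and 14.0% higher over all genes, with medians of -0.07, -0.05 and -0.04. Without pair 3, 10 ribosomal and 10 respiratory chain genes were higher and 17 of each lower, and the medians were -0.01 and -0.02. These are 21.7% and 26.3% higher and 37.0% and 44.7% lower, where 20.1% of all genes were higher and 37.4% lower. With median-of-ratios scaling 23.9% of the ribosomal genes were lower, against 20.1% of all genes. With median-of-ratios scaling the share of higher genes among all those of 1 direction was 46.4%, against 37.1% on the deposited scale, so that small leanings of many genes to the lower side depend in part on the scaling.

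**Figure D2:**
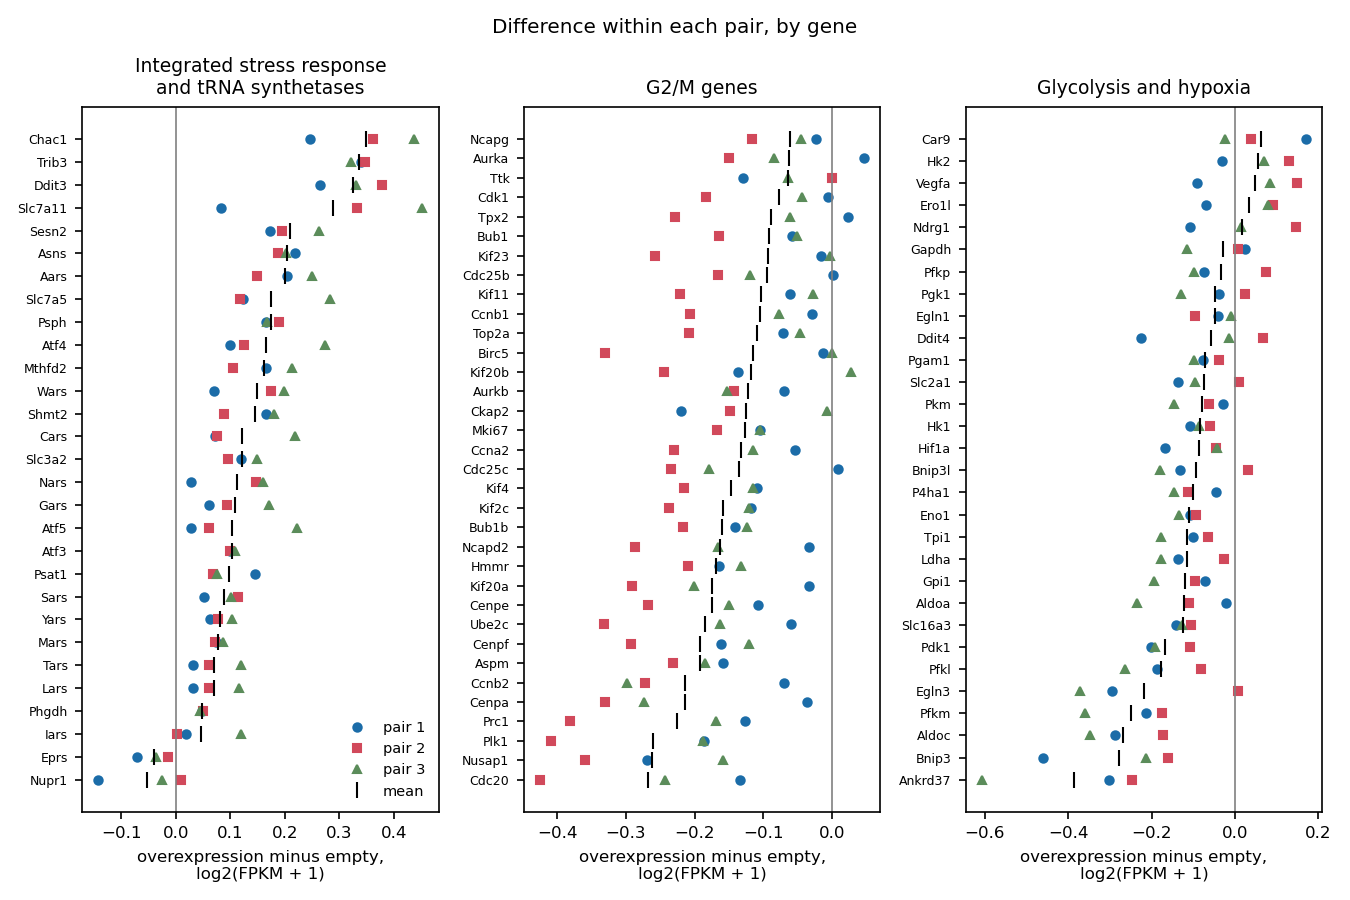
Overexpression minus empty control in log2(FPKM + 1) for each tested gene of 3 lists; symbols are the 3 pairs and the bar is their mean. Nearly all stress response genes sit to the right of 0 in every pair (27 of 29), and G2/M (27 of 34) and glycolysis genes (18 of 30) sit to the left.

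Lists of microglial state and immune genes held members of both directions. Disease-associated microglia markers are a signature found around amyloid plaques. Among 29 tested, 13 were higher (44.8%, against 14.0% of all genes) and 6 lower (20.7%, against 23.8%) in all pairs. None passed, and 10 higher and 4 lower ones had an unadjusted p under 0.05 in limma, against 5.4% and 8.66% of all genes. The median was 0.05. Lgals3, the gene of galectin-3, was at 665, 606 and 561 FPKM against 868, 795 and 644 FPKM, a difference of 0.32, and Apoe, the gene of apolipoprotein E, at 308, 273 and 334 FPKM against 274, 221 and 238 FPKM, a difference of -0.32 (limma, BH adjusted p = 0.145 and 0.180). Spp1, which encodes osteopontin and was at 8130.25 FPKM in the lowest library, differed by 0.20. Of 9 homeostatic markers tested 2 were higher (22.2%) and 4 lower (44.4%). Complement and Fc receptor genes were higher in 7 (43.75%) and lower in 4 (25%) of 16. C1qb, a chain of the complement starter C1q, was at 35.5, 28.4 and 26.1 FPKM against 62.0, 34.9 and 36.1 FPKM (difference 0.51), with Cfb at the other end. Pair 1 set the upper value of C1qb, and the groups overlapped by a little.

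Over all genes 14.0% were higher and 23.8% lower in all pairs. Type I interferon response genes were higher in 10 (20%) and lower in 17 (34%) of 50. For NF-kB and inflammatory cytokine genes it was 8 (27.6%) and 11 (37.9%) of 29. For pattern recognition receptors and adaptors it was 6 (19.4%) and 11 (35.5%) of 31. The medians were -0.02, -0.04 and -0.03. Ifi44, an interferon-induced gene, was higher in all pairs by 0.25. Genes of MHC class I presentation were mixed in 16 of 23, where 6974 of all 11217 genes were, with H2-Q6 at -0.43. Lysosomal genes were higher in 10 and lower in 10 of 41. Atp6v0d2, a subunit gene of the proton pump, was the lysosomal gene with the largest difference, at 9.27, 8.71 and 8.78 FPKM against 12.04, 14.5 and 12.5 FPKM, a difference of 0.49 without overlap (limma, BH adjusted p = 0.115). Receptors and bridging proteins of phagocytosis were higher in 7 (33.3%) and lower in 5 (23.8%) of 21. Mfge8, which encodes a protein that bridges dying cells to phagocytes, was at 305, 541 and 352 FPKM against 407, 703 and 461 FPKM, and its pairs differed by 0.38 to 0.42 (limma, BH adjusted p = 0.0606).

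Of 37 tested genes at Alzheimer's disease risk loci, Spi1 alone passed. In all pairs 7 were higher (18.9%, against 14.0% of all genes) and 13 lower (35.1%, against 23.8%), and the median was -0.04. The Ms4a genes of this list code for membrane proteins of myeloid cells: Ms4a7 was at 7.49, 4.95 and 4.74 FPKM against 10.7, 6.49 and 6.89 FPKM, a difference of 0.42, and Ms4a6b at 1.35, 0.421 and 0.810 FPKM against 2.09, 1.46 and 1.98 FPKM, a difference of 0.63 without overlap (limma, BH adjusted p = 0.0839 and 0.113). Clu, the gene of the chaperone clusterin, was at 108, 169 and 163 FPKM against 90.9, 132 and 124 FPKM, a difference of -0.33.

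**Figure D3:**
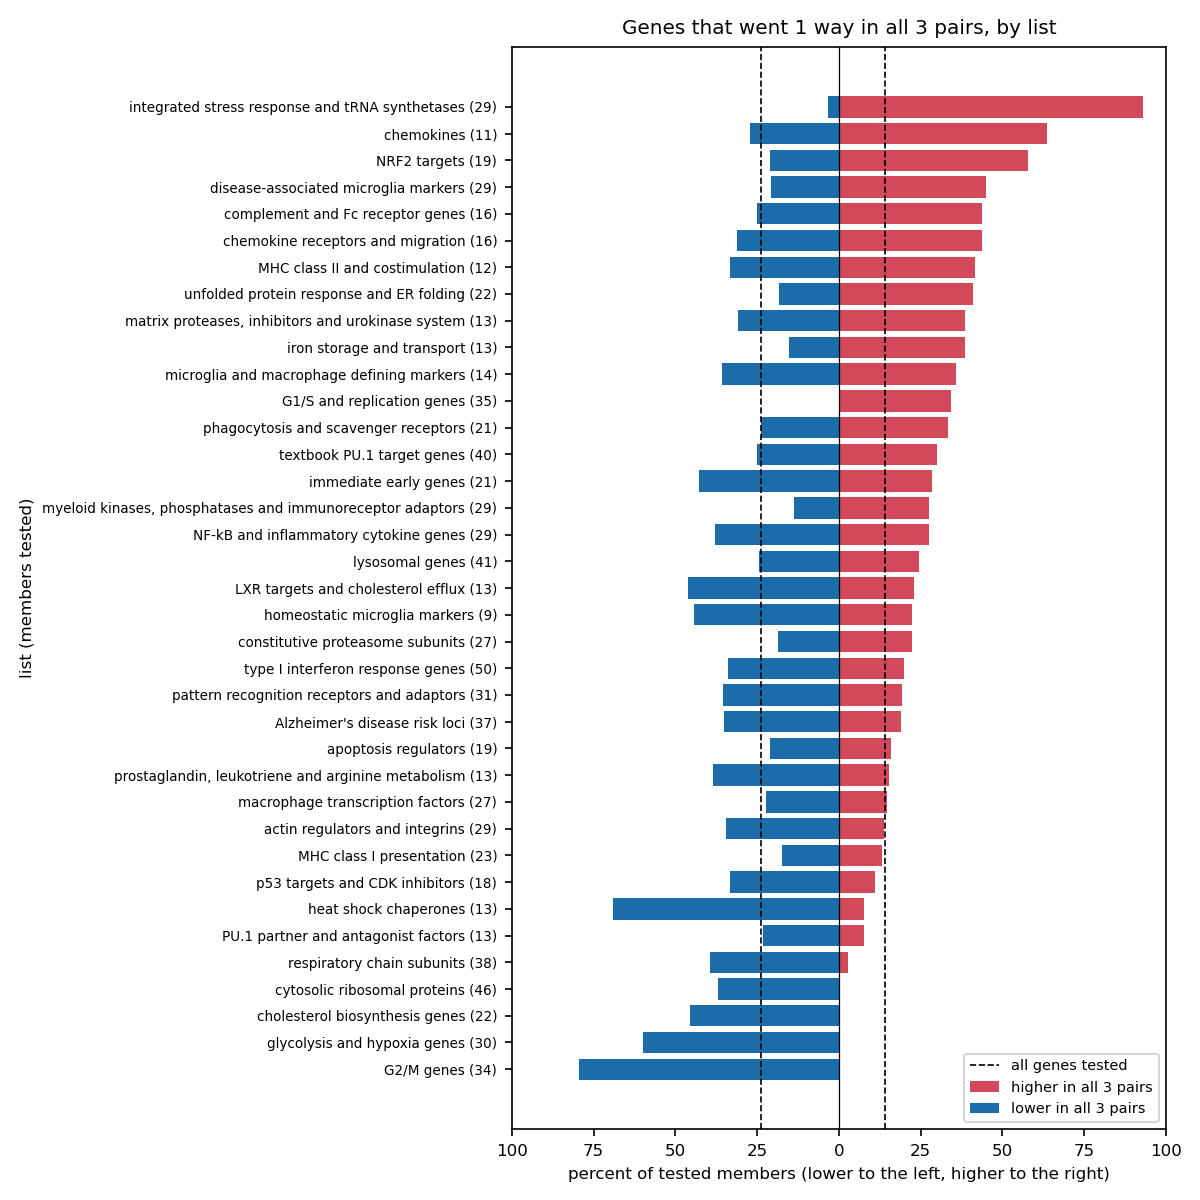
Percent of the tested members of each of 37 gene lists that were higher (right) or lower (left) in all 3 pairs, with the number tested in brackets; dashed lines are the shares over all genes tested, 14.0% higher and 23.8% lower. Stress response genes reach furthest to the right and G2/M genes furthest to the left of the lists drawn.

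The libraries with lowered Spi1, compared with their own scrambled controls in a paired fit, allow the same genes to be read in the opposite manipulation. In that fit 30.6% of 11214 genes were higher and 14.7% lower in knockdown (limma, BH). Of the 97 genes at least 0.2 higher in all overexpression pairs, 90 could be tested in knockdown, and 53 of them, or 58.9%, fell there and 4 rose. Of the 83 at least 0.2 lower in overexpression 38, or 45.8%, rose in knockdown and 7 fell. The genes were picked on their overexpression difference, while the knockdown libraries were not used to pick them.

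A test of the effect of overexpression minus that of knockdown passed for 4662 of 11112 genes, or 42.0%, and so for many genes that overexpression alone did not move. For genes picked by their overexpression difference, this test reuses the values they were picked by. Mmp12 was at 45.3, 8.21 and 4.85 FPKM in the scrambled controls and at 8.37, 1.65 and 1.01 FPKM in knockdown, a log2 difference of -1.88 beside 2.21 in overexpression. The 3 scrambled controls of Mmp12 spread widely, and each knockdown library was below the control of its number. The effects differed by 4.09 (limma, BH adjusted p = 0.000324). Ccl12, with -1.56 in knockdown, Evl, with -0.65, and Gm5483, with -1.04, likewise differed, by 2.82, 1.28 and 2.15 (limma, BH adjusted p between 0.000301 and 0.00116). Mmp13 was at -0.60 in knockdown, which did not pass (limma, BH adjusted p = 0.0524), and its effects differed by 1.88. Adora2b and Ccl5 did not pass in knockdown either, where their differences were 0.11 and 0.04 (limma, BH adjusted p = 0.311 and 0.405), and the effects differed by 0.47 and -0.61 (limma, BH adjusted p = 0.00774 and 0.000463). Gsta2 was not tested in knockdown. For Spi1 the 2 manipulations differed by 2.56, with -1.75 in knockdown.

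Hp had the widest gap on the lower side. It was at 4.99, 7.02 and 9.23 FPKM in the scrambled controls and at 74.4, 66.0 and 80.0 FPKM in knockdown, a log2 difference of 3.23, beside -1.09 in overexpression (difference of the effects -4.32; limma, BH adjusted p = 0.000324). In knockdown Il1rn fell by 1.52, Csf3 fell by 1.78, Clec4n fell by 1.999 and Nos2 fell by 1.91 on this scale. A few genes lay in the same direction in both manipulations. Mmp9 fell by 0.30 and Cybb fell by 0.49 in knockdown. Igsf6, an immunoglobulin-domain receptor gene, had 24.75, 18.5 and 14.7 FPKM in the empty controls against 21.1, 14.0 and 11.96 FPKM in overexpression. Its knockdown difference was -1.80. On the higher side, Emr1 differed by 0.28 in overexpression without passing and rose by 0.74 in knockdown (limma, BH adjusted p = 0.00575). Among the lists, 27 of 40 textbook PU.1 targets fell in knockdown and 2 rose, where none passed in overexpression. The test of the difference, which includes the knockdown effect, passed for 29 of these 40 genes and for 42.0% of all genes. For the stress response list 16 of 28 fell and 3 rose in knockdown, and for G2/M genes 33 of 34 rose. Other lists lay in the same direction in both manipulations. Of 35 G1/S and replication genes 30 rose and none fell in knockdown, beside 12 higher and none lower in all overexpression pairs. Of 30 glycolysis and hypoxia genes 9 fell and 4 rose in knockdown, beside 18 lower and none higher in all overexpression pairs. Over all genes 30.6% rose and 14.7% fell in knockdown. Each of these statements is made against that experiment's own controls.

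**Figure D4:**
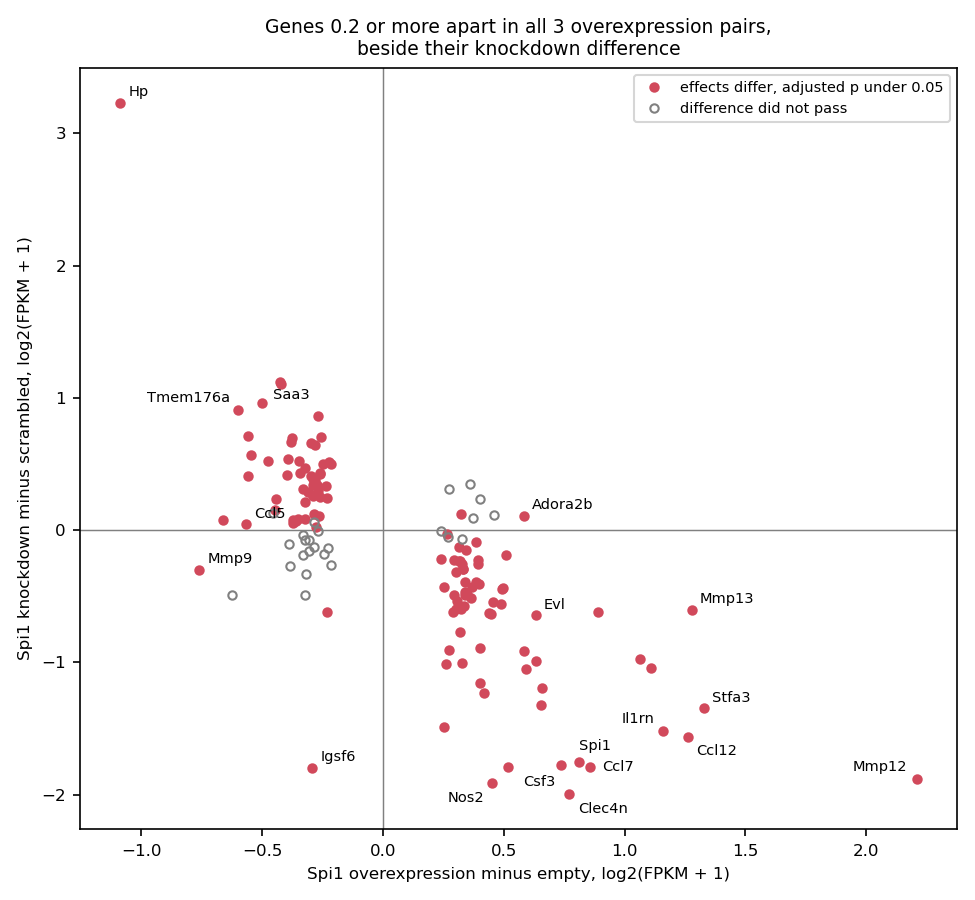
Spi1 overexpression minus empty control (horizontal) and Spi1 knockdown minus scrambled control (vertical), both in log2(FPKM + 1), for the 145 genes of at least 150 bases that differed by 0.2 or more in all 3 overexpression pairs and were tested in both experiments. Filled points, 120 genes, passed the test of the difference between the effects, which 42.0% of all genes tested passed. That test reuses the overexpression values by which the genes drawn were picked, so their share cannot be set against that of all genes. Most genes to the right of 0 lie below the horizontal line, Mmp12 furthest right, and Hp stands alone at the upper left.

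The letters GAGGAA were counted on both strands in the RefSeq promoter windows of the genes that differed by at least 0.2 in all pairs, since PU.1 binding sites contain them. A window was found for 56 of the 97 higher genes, and 30 of these (53.6%) held the motif in at least 1 window; for the lower genes it was 21 of 53 (39.6%). Over all 27025 genes with a window 31.3% held it, and over the 8181 tested genes with a window 30.6% did. The longer GAGGAAGT, which contains it, was in 4 of 56 (7.14%) and 5 of 53 (9.43%), against 3.69% of all genes and 3.98% of tested genes. Genes with more than 1 window have more chances of a match. The higher set had 72 windows for its 56 genes, and the tested genes had 10431 for 8181. Counted by window, GAGGAA was in 47.2% for the higher set, 34.8% for the lower set and 26.9% for the tested genes. Mmp12 is one of the 4 higher genes with the longer motif.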

How the data were processed

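The authors deposited 1 table per experiment with a value per gene and library and no stated unit. These values were taken as FPKM, since they behave as reads scaled by gene length and depth: whole reads were recovered for 100.0% of the genes above 0, and the deposited FPKM values keep depth. Per the submitters' processing notes CASAVA 1.8.2, bcl2fastq, STAR 2.5.2a, featureCounts, DESeq2 1.14 and the build mm10 were used, with no roles given. The 4 entries whose symbol occurs more than once were left out. Samples were grouped by the labels' treatment and matched to columns by title.

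Values were tested as log2(FPKM + 1) with limma 3.58.1 in R 4.3.3, with the pair number as a block, Benjamini-Hochberg adjustment over the 11217 genes whose mean reached 1 FPKM, and a threshold of 0.05. A count test was not the main one because the files hold FPKM; limma-voom on the recovered reads was an alternative. Fold changes are on the log2(FPKM + 1) scale, which understates those of low genes. The effects of overexpression and knockdown were compared by an interaction contrast over 12 libraries with a block per pair, for genes whose mean reached 1 FPKM in each experiment. Tables were handled with Python 3.11.15 and pandas 2.3.3, and figures were drawn with matplotlib 3.10.9. The fits were tested on simulated data.

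The pairing comes from the numbers in the sample titles. Same-numbered empty and overexpression libraries deviated together from their group means, with correlations across genes of 0.791, 0.845 and 0.513, and different-numbered ones had -0.746 to 0.161. Deviations from a group's own mean cancel out within the group, so positive values for same numbers force the others negative on average. The lower values are thus no separate evidence for the pairing. Alternatives were the fit without the block, another pseudocount, other filters, another scaling, limma with trend and robust options, voom, and each pair left out.

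The genes named are Spi1, the 15 largest rises and 15 largest falls that passed, filled where fewer passed with genes of 1 direction in all pairs by their smallest pair difference, up to 4 called members of each gene list or else the 2 with the smallest p, and the 10 largest differences between experiments of each sign among called genes; predicted genes, clones and pseudogenes were skipped. Other genes were chosen after their values were seen, among them Gm5483, Degs2, Ccl2, Ccl8, Cxcl2, Emr1, Clu, Lgals3, C1qb, Ms4a7, Ms4a6b, Igsf6, Chac1, Asns, Atf4, Aars, Slc7a11, Cdc20, Plk1, Pdk1 and Ldha. The members, the 48 gene lists and the tests were chosen with earlier results of these data known. Promoter sequences are from RefSeq on GRCm38.p6. Replicates in a group are separate libraries.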

Additional observations from a re-analysis of the deposited data

How the results depend on the processing

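Against 13 calls with the pair block, limma gave 0 with no replicate block, 0 with a pseudocount of 0.1 FPKM and 0 with no filter on low values, where 122, 1500 and 2220 genes had an unadjusted p under 0.05; limma-voom gave 543. It gave 73 with a mean of at least 5 FPKM, 209 with trend and robust options and 81 with a mean of at least 20 recovered reads, a filter chosen after seeing the data, and 12 with median-of-ratios scaling. Of the 13 genes 6, 12, 9 and 12 remained in these 4, and 9 in voom. Of the genes chosen for naming that were not among the calls, 93 passed in voom and 61 with trend and robust options. Leaving out 1 pair gave 0 to 46 calls; without pair 1, 1477 genes had an unadjusted p under 0.05. Genes of 1 direction numbered 4243 with 3 pairs and 6254 to 7024 with a pair left out, where fewer differences have to share a sign, and median-of-ratios scaling split them into 1955 higher and 2258 lower. The block and the trend option cannot change that count.

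Spi1 kept its direction throughout. Its log2 difference was 0.81 with no replicate block (limma, BH adjusted p = 0.9999), 0.81 with a pseudocount of 0.1 FPKM (adjusted p = 0.139) and 0.81 with no filter (adjusted p = 0.287), and 0.75 to 0.89 with a pair left out. The difference between overexpression and knockdown passed for 4662 genes with the pair blocks, for 549 with no replicate block and for 1658 to 3458 with a pair left out. No value that passed turned its direction under any of these alternatives. Why the number of calls differs so widely between these alternatives was not tested, and the 4 calls on entries shorter than the reads rest on 1 to 11 reads per library.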

Other observations

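Other genes that differed by at least 0.2 in all pairs, and that are not named above, include Kctd12, which encodes an auxiliary subunit of GABA-B receptors, at 0.46, and Slc40a1, the gene of the iron exporter ferroportin, at 0.36. Gdf15, which encodes a stress-induced cytokine, was at 0.37, and Slpi, the gene of a secreted inhibitor of leukocyte elastase, at -0.45. Ccr1, a receptor gene for CC chemokines, differed by 0.45, Cd36, a scavenger receptor gene, by 0.40, and Fas, a death receptor gene, by -0.39. None of these 7 genes passed the paired test, and each is given as a log2(FPKM + 1) difference, overexpression minus empty control.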
